A study of Mus musculus with 6 samples.

Results

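The olfactory epithelium of the intact side of the nose was described from 3 arrays, 1 for each of 3 mice, out of the 6 arrays of the series. These 3 were chosen by their label alone, which gives the side contralateral to a unilateral olfactory bulbectomy (OBX). All animals were male C57BL/6 mice, labelled as 8 weeks of age at surgery, and tissue was taken 5 days later. The study's methods give a younger age than the labels. The other 3 arrays came from the bulbectomized side of the same animals, and no comparison with them was made. The intact side therefore stands for epithelium whose neurons keep their bulb, in an animal that was operated on, and an unoperated mouse was not analysed here.

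Total RNA from each epithelium was measured on an Affymetrix Mouse Exon 1.0 ST array, which carries several short probe sets along the exons of a gene. The deposited values are log2 signals of single probe sets. Each gene was given the mean of all its probe sets that carry exactly 1 gene symbol, in each mouse, which left 16380 genes. A signal of this kind depends on the probes as well as on the RNA, and the probe sets of a single gene had a median SD of 1.25 on the log2 scale among genes with at least 4 of them. Ranks between genes below are thus ranks of array signal and not of transcript numbers. Values are log2 signals as mean ± SD over the 3 mice unless said otherwise.

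The olfactory epithelium is a layered neuroepithelium that makes neurons throughout life. Mature olfactory sensory neurons (OSNs) carry odorant receptors on cilia at the surface, and immature OSNs below them grow axons toward the bulb. Globose and horizontal basal cells at the basal lamina hold the progenitors. Sustentacular cells span the layer and carry detoxifying enzymes, and Bowman's glands under the epithelium secrete mucus onto it. Samples of this tissue can also take in connective tissue, bone, blood and the neighbouring respiratory epithelium.

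Gene signals ran from 1.72 to 14.30, with a median of 8.23 and quartiles of 6.49 and 9.48. The 3 mice were close to each other across genes, with Pearson correlations of 0.989 to 0.991 that describe the arrays and are taken over genes, which are not independent replicates. The median SD of a gene over the 3 mice was 0.13, and 382 genes, 2.33% of all, differed between some pair of mice by more than 1 on the log2 scale, that is by more than 2-fold. The array of mouse 1 ran slightly higher than the others, with a median deviation of a gene from its own mean of 0.06 in mouse 1, -0.05 in mouse 2 and -0.01 in mouse 3. A level for genes that nasal tissue should not use was taken from 60 genes typical of liver, pancreas, testis, oocyte, retina, heart, kidney or intestine, whose median was 5.41. The 95th percentile of that list, 7.45, is called the off-tissue level here, and 62.5% of all genes lay above it. The sodium and glucose carrier gene Slc5a1 at 10.30, Nphs1 at 8.17 and the water channel gene Aqp2 at 7.82 were the 3 members of that list above it.

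The markers of OSNs and sustentacular cells were among the genes of highest signal. Omp, the marker protein of mature OSNs, gave 14.28, 14.19 and 14.19 in mice 1, 2 and 3, rank 3 of all genes, on 2 probe sets. Only the histone genes H2ac15 at 14.30 and H2ac12 at 14.23 had higher means, each on a single probe set, and histone genes have near-identical copies, so these 2 values may be shared among copies. Among genes with at least 4 probe sets, Cyp2g1, a cytochrome P450 gene of sustentacular cells, was highest with 13.95, 13.87 and 13.87. Neither gene varied by as much as 0.10 between mice.

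Of the 25 genes of highest signal with at least 4 probe sets, a first group held markers of OSNs and a gene listed with odour transduction. The markers were Stoml3 at 13.63 ± 0.12, which encodes a membrane protein of OSN cilia, and S100a5 at 13.57 ± 0.04, a calcium-binding protein. The other was Gnb1 at 13.61 ± 0.06, a G protein beta subunit that is not on the mature OSN list. A second group held genes of supporting and secretory cells, together with Cyp2f2, which is listed here as a marker of respiratory epithelium. Gpx6, a glutathione peroxidase of Bowman's glands, reached 13.73 ± 0.08, the secreted protein gene Bpifa1 13.64 ± 0.07, the xenobiotic enzyme gene Cyp2f2 13.48 ± 0.03, the odorant-binding protein gene Obp2a 13.42 ± 0.69 and the carbonyl reductase gene Cbr2 13.36 ± 0.01. Obp2a had the widest spread of the 25. The collagen genes Col1a2 at 13.26 ± 0.29 and Col1a1 at 13.24 ± 0.47 stood for connective tissue and bone. Most of the remainder are used by nearly every cell, among them Eef1a1 at 13.68 ± 0.05, Actb at 13.38 ± 0.06, Rps6 at 13.20 ± 0.03, Hspa8 at 13.17 ± 0.03, Pkm at 13.08 ± 0.04 and the metallothionein gene Mt2 at 13.02 ± 0.06. The 2 probe sets of the hemoglobin gene Hbb-b1 gave 13.35 ± 0.64, and blood is described with the differences between mice.

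Marker lists of the cell types differed widely in signal. The 18 measured mature OSN markers had a median of 12.24, in the 99.2 percentile of all genes. All of them lay above the off-tissue level, against 62.5% of all genes. The 12 immature OSN markers had a median of 11.12, the 14 sustentacular markers 11.67 and the 7 Bowman's gland markers 11.91. The gland median had an SD of 0.76 over mice, with 11.61, 13.09 and 12.06 in mice 1, 2 and 3, so it lay above the mature OSN median of 12.07 in mouse 2 and below the sustentacular median of 11.72 in mouse 1. Globose basal and precursor genes, 13 of them, had a median of 8.66, and 8 horizontal basal genes 7.93, near the median of all genes. In RNA of a whole tissue, fewer cells of a type and less RNA per cell cannot be told apart. Each list is a set of known markers, several of which are used by more than 1 cell type.

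**Figure D1:**
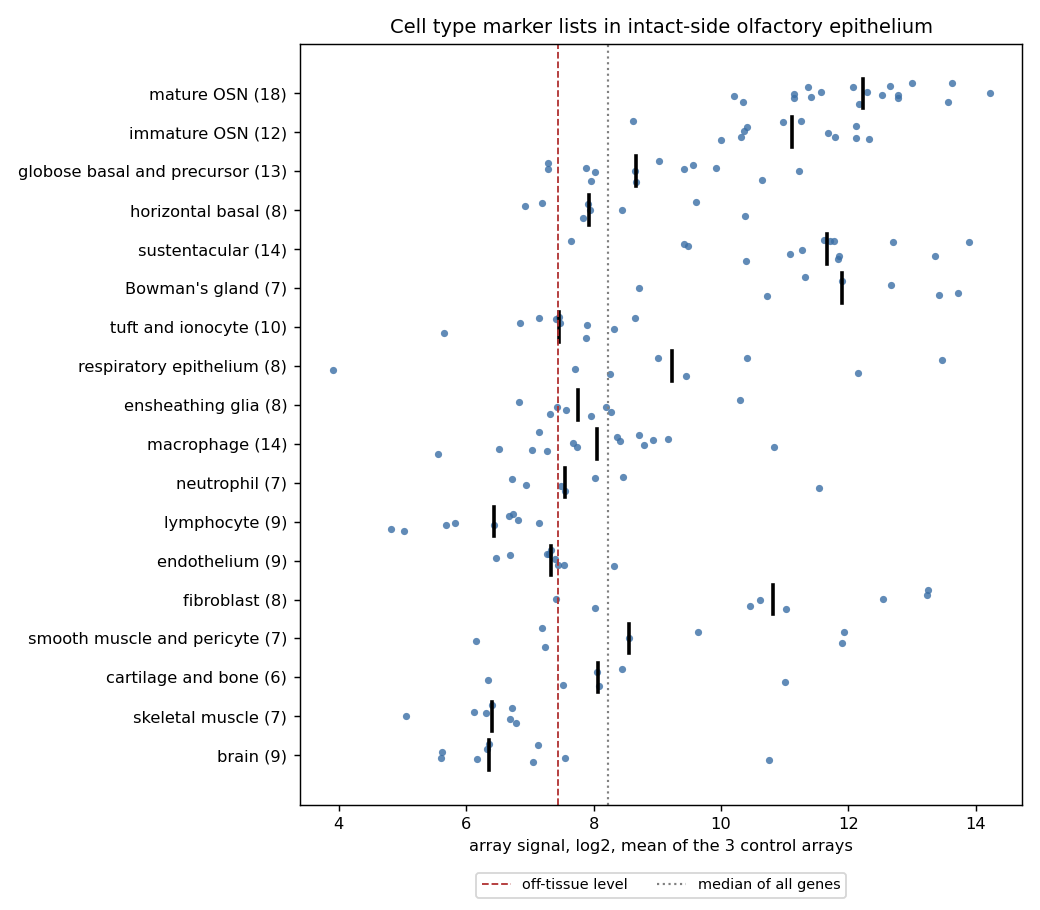
Array signal (log2, mean of the 3 control arrays) of each marker gene, by cell type, with the number of genes in parentheses. Each point is a gene, black bars are list medians, the dashed line is the off-tissue level of 7.45 and the dotted line the median of all genes, 8.23. The lists of mature OSNs, immature OSNs, sustentacular cells and Bowman's glands have medians from 11.12 to 12.24, while lymphocyte, skeletal muscle and brain lists have medians from 6.36 to 6.44.

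The markers given for the tissue were all high. Gap43, a growth cone protein of immature OSNs, gave 12.40, 12.34 and 12.21 in mice 1, 2 and 3, in the 99.3 percentile. Krt5, a keratin of horizontal basal cells, gave 10.42, 10.35 and 10.38, in the 89.5 percentile. The 4 markers thus ordered as Omp, Cyp2g1, Gap43 and Krt5 in every mouse, with gaps larger than the range of any of them over mice.

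Among immature OSN genes, the microtubule regulator Stmn2 reached 12.12 ± 0.10 and the neuronal tubulin Tubb3 12.12 ± 0.17, close behind Gap43. Ncam1, an adhesion molecule of axons, reached 11.79 ± 0.13, Dpysl3, a mediator of growth cone guidance, 11.68 ± 0.05, and Dcx, a microtubule protein of young neurons, 11.26 ± 0.14. The lowest of the 12 was Nhlh2 at 8.62, still above the median of all genes. Precursor genes spread more widely. The cyclin gene Ccnd1 reached 11.23 ± 0.05, Nhlh1, a transcription factor of late precursors, 10.65 ± 0.21 and Insm1, which promotes the neuron-producing divisions of progenitors, 9.93 ± 0.10. The proneural genes Neurod1 at 8.65 ± 0.20 and Neurog1 at 7.96 ± 0.28 lay lower. Mki67, a protein of dividing cells, gave 7.63 and 7.59 in mice 1 and 2 and 6.63 in mouse 3, and the lowest value was below the off-tissue level. Top2a, also a gene of dividing cells, gave 9.27, 8.99 and 8.83 in the same mice.

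Of the horizontal basal genes, Krt14, the partner keratin of Krt5, followed at 9.61 ± 0.12. Egfr at 8.45, Itgb4 at 7.95, Icam1 at 7.91 and Col17a1 at 7.83 lay between the off-tissue level and just above the median of all genes. Trp63, the transcription factor that keeps these cells quiescent, had 7.19 ± 0.11 and Krt15 had 6.92 ± 0.52, both below the off-tissue level. Against 62.5% of all genes, 9 of the 43 keratin genes measured, 20.9%, lay above that level. They were led by Krt18 at 11.85 ± 0.05 and Krt8 at 11.77 ± 0.10, the keratin pair of simple epithelia and sustentacular cells, and both exceeded Krt5 in every mouse.

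Genes of odour transduction were high in every mouse. An odorant-bound receptor activates a G protein, which switches on an adenylyl cyclase, and cyclic AMP opens a cyclic nucleotide-gated channel. Calcium entering through it opens a chloride channel that amplifies the current. The 8 genes measured of this pathway had a median of 12.48, with Cnga2, a subunit of the cyclic nucleotide-gated channel, at 13.09, 12.91 and 13.00 in mice 1, 2 and 3. Ano2, the calcium-activated chloride channel, gave 12.87, 12.68 and 12.80. Adcy3, the cyclase of the pathway, gave 12.39, 12.12 and 12.38. Ric8b, which helps the G protein to fold and act, reached 12.65 ± 0.11, Slc12a2, the chloride loader, 11.94 ± 0.09, the alpha subunit gene Gnal 11.42 ± 0.11 and the gamma subunit gene Gng13 11.37 ± 0.22. All 8 were lowest in mouse 2, as were 49.8% of all genes.

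Within 4 families of signalling proteins, the member listed with odour transduction stood well above the next. Among 9 adenylyl cyclase genes, Adcy3 exceeded the next, Adcy6 at 8.22 ± 0.10, by 4.08 on the log2 scale, and by 3.84 in the array where the gap was smallest. Among the cyclic nucleotide-gated channel genes, Cnga2 was the only measured member above the off-tissue level, and Cnga3 at 5.47 ± 0.23, Cngb3 at 4.10 and Cnga1 at 3.88 were all below it. The subunit genes Cnga4 and Cngb1, also listed with odour transduction, were not measured here, so nothing is known of their signal. Ano2 exceeded Ano10, the next anoctamin, by 2.91, and Gnb1 exceeded Gnb2 by 3.19. These gaps are larger than the median probe-set SD within a gene, but probes of different genes have different affinities, so the gaps are not ratios of transcripts.

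In several other families the leader was closer to the next member. Gnal led the G protein alpha subunits by 0.60 over Gnao1 at 10.82 ± 0.16, with Gnai2 at 10.74 ± 0.12 close to it. Gng13 led the gamma subunits by 0.39 over Gng8 at 10.98 ± 0.02, a gamma subunit of immature OSNs, and by as little as 0.14 in 1 mouse. Among 22 phosphodiesterase genes the top was Pde7b at 12.22 ± 0.13, followed by Pde6d at 11.45 ± 0.12, ahead of Pde1c at 11.14 ± 0.12, the calcium-dependent enzyme of OSN cilia, and Pde4a at 10.20 ± 0.14, the enzyme of the rest of the OSN. Sodium channel beta subunits held a high pair, Scn4b at 11.45 ± 0.16 and Scn3b at 11.11 ± 0.13, against Scn2b at 6.23 ± 0.22. Kcnc4 at 12.19 ± 0.14 led 27 voltage-gated potassium channel genes by 1.13. Scn9a, at 11.17 ± 0.14 the top sodium channel alpha subunit, rested on a single probe set.

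**Figure D2:**
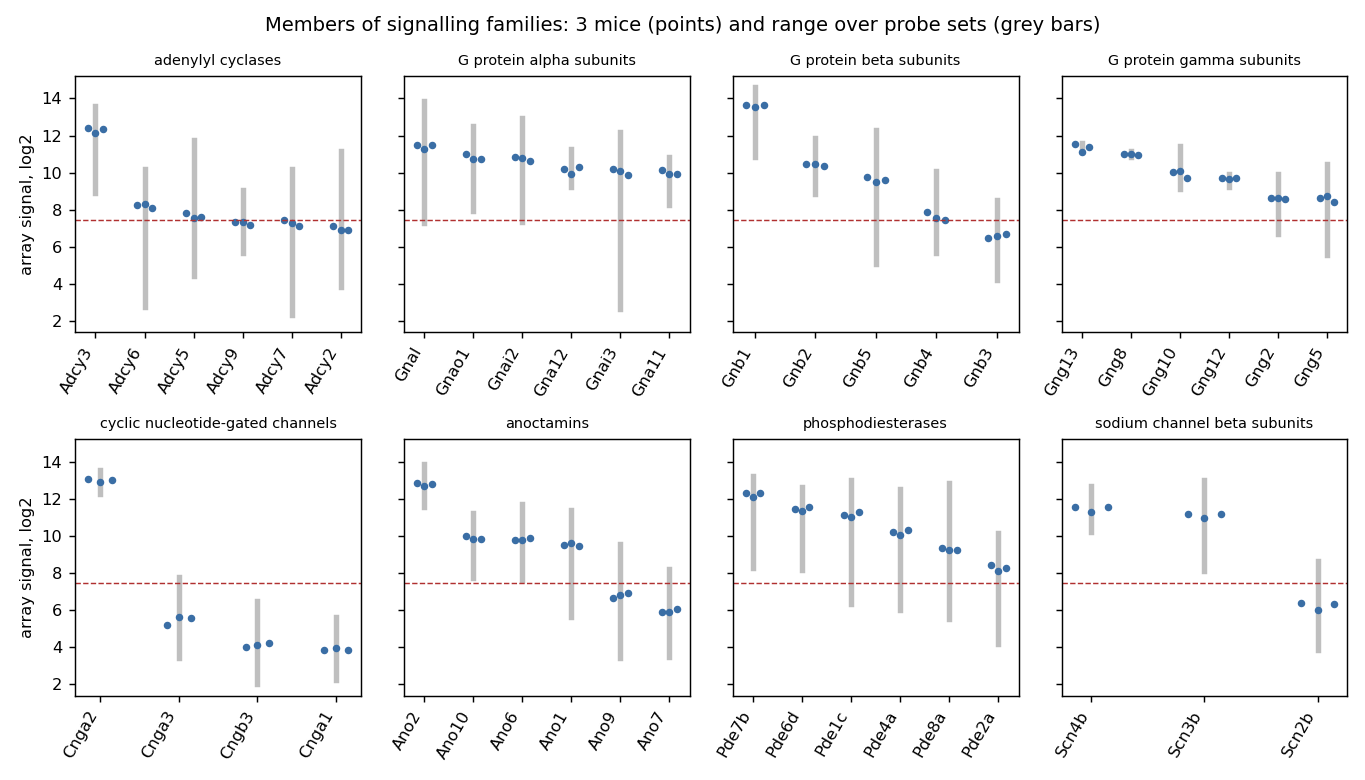
Array signal (log2) of the highest members of 8 signalling families. Points are mice 1, 2 and 3 from left to right, grey bars run from the lowest to the highest probe set of the gene, and the dashed line is the off-tissue level. Adcy3, Gnb1 and Ano2 stand 2.91 to 4.08 above the next member of their family. Cnga2 is the only measured channel subunit of its family above the dashed line, and Cnga4 and Cngb1 were not measured. Alpha subunits, gamma subunits and phosphodiesterases step down gradually.

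The promoters of mature OSN markers are shown because Ebf factors, which bind an inverted repeat with the core CCCNNGGG, are known regulators of OSN genes and were themselves high. Ebf3 reached 11.70 ± 0.14, Ebf2 11.56 ± 0.13, Ebf1 11.29 ± 0.12 and Ebf4 10.74 ± 0.13. In RefSeq promoters of build GRCm38.p6, the 250 bases before the start held CCCNNGGG in 5 of the 14 mature OSN markers that matched, against 13.7% of the 13062 promoters of all measured genes that matched. The motif reads the same on both strands. The 5 genes were Cnga2, Gng13, Rtp2, Slc24a4 and Umodl1, and a match is a description of letters, not a bound site. For Cnga2 (chrX:71991749-71991848, plus strand) the match began 66 bases before the start, and for Gng13 (chr17:25717072-25717171, plus strand) the first of 2 overlapping matches began 95 bases before it. The last 100 bases before the start are printed with the matches in capitals.
Cnga2: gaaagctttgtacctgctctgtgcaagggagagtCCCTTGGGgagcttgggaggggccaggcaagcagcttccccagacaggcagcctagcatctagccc
Gng13: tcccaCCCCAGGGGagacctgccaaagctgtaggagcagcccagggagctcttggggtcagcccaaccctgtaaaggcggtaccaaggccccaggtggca

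Other transcription factors of the OSN lineage were also high. Lhx2, a homeodomain factor needed for OSN differentiation and odorant receptor expression, had 11.95 ± 0.07, Atf5, part of the stress response that follows receptor expression, 11.45 ± 0.12, Ldb1, the partner of Lhx2, 11.11 ± 0.04 and Emx2 9.43 ± 0.20. All 14 factors of that list measured lay above the off-tissue level, against 62.5% of all genes, and the median of the 14 was 11.04. Pax6, a factor of basal and sustentacular cells, was the lowest of them at 8.62 ± 0.09.

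Genes that end the odour response had lower signals than those that start it, with a median of 9.33 over 9 genes. Calm3, a calmodulin gene, had 11.83 ± 0.18 and Slc24a4, the calcium exchanger that clears the cilium, 11.57 ± 0.13. Grk3, a kinase that acts on odorant receptors, had 7.42 ± 0.08 and Camk2b 6.96 ± 0.06, both below the off-tissue level. Receptor trafficking genes were led by the chaperone gene Hspa8. Behind it stood the receptor transporting proteins that bring odorant receptors to the membrane, Rtp1 at 12.18 ± 0.14 and Rtp2 at 12.07 ± 0.08. Their relative Rtp3 had 5.36 ± 0.25. Rtp4, an interferon-induced gene, had 7.74, 8.76 and 7.57 in mice 1, 2 and 3.

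Presynaptic genes had a median of 9.85 over 15 members. The calcium sensor gene Syt1 reached 11.90 ± 0.20, the vesicle protein gene Syp 11.54 ± 0.14 and the fusion protein gene Snap25 11.23 ± 0.14. The glutamate transporter gene of OSNs, Slc17a6, reached 11.16 ± 0.18, while Slc17a7, the form typical of cortex, had 6.24 ± 0.06. All 20 genes of ciliary transport and the BBSome, with a median of 9.91, were above the off-tissue level, against 62.5% of all genes. Ift20 led them at 11.84 ± 0.07 and Kif17 was lowest at 7.81 ± 0.21.

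Odorant receptors made the largest family, with 888 genes measured. Each OSN is known to express a single receptor gene, so the RNA of each receptor comes from a small share of the neurons. The receptors ran from 2.17 to 11.32 with a median of 7.42, in the 37.1 percentile of all genes, and 437 of them, 49.2%, lay above the off-tissue level, against 62.5% of all genes. The receptors and the genes of the off-tissue list overlapped widely, so the level does not divide receptors that are expressed from those that are not. None reached the top 1% of genes and 15 reached the top 10%.

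Class I receptors, an older group related to receptors of fish, had higher signals than class II receptors. The 104 class I genes had a median of 8.33, with 8.54, 7.98 and 8.33 in mice 1, 2 and 3, and 76 of them, 73.1%, lay above the off-tissue level. The 779 class II genes had a median of 7.23, with 7.48, 7.02 and 7.29, and 359 of them, 46.1%, lay above it. The class difference in median held in each mouse, while the ranges of single genes of the 2 classes overlapped almost wholly. A single probe set was behind 44 of the 104 class I genes and 230 of the 779 class II genes. Over all receptors, the median was 8.05 for those with a single probe set and 6.89 for those with at least 4. The part of probe set number in medians by class or chromosome was not tested. By chromosome, the median was highest for the 11 receptors of chromosome 13 at 8.51 and the 26 of chromosome 1 at 8.36, and lowest for the 49 of chromosome 10 at 6.81, the 110 of chromosome 9 at 6.83 and the 243 of chromosome 2 at 6.94.

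The 5 receptors of highest signal were Olfr449 at 11.32 ± 0.34, Olfr1395 at 11.12 ± 0.03, Olfr727 at 11.03 ± 0.67, Olfr15 at 10.90 ± 0.18 and Olfr690 at 10.76 ± 0.27. The last is of class I and the other 4 are of class II. Olfr449 rested on 2 probe sets and the other 4 on a single probe set each, so their order also reflects single probes. Olfr1395 had 11.15, 11.11 and 11.08 in mice 1, 2 and 3, whereas Olfr727 had 11.40, 10.25 and 11.44. The 5 lowest were Olfr126 at 2.17, Olfr486 at 2.59, Olfr473 at 2.61, Olfr952 at 2.63 and Olfr583 at 2.73, all far below the off-tissue level.

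Receptor promoters also differed in composition from those of other genes. Over the 250 bases before the start, the 747 receptor promoters that matched had a median GC content of 33.6%, against 57.2% for all 13062. TAATTA, the core bound by homeodomain factors such as Lhx2 and the same on both strands, was found in 18.2% of receptor promoters and 4.01% of all. TATAAA on either strand was found in 40.6% of receptor promoters and 11.4% of all, whereas CCCNNGGG was found in 2.81% of receptor promoters. TATAAA beginning 20 to 40 bases before the start, on the gene's strand, was found in 1.47% of receptor promoters and 2.54% of all. Short motifs of A and T are frequent wherever GC content is low, and the starts of receptor genes are often annotated less exactly than those of other genes.

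**Figure D3:**
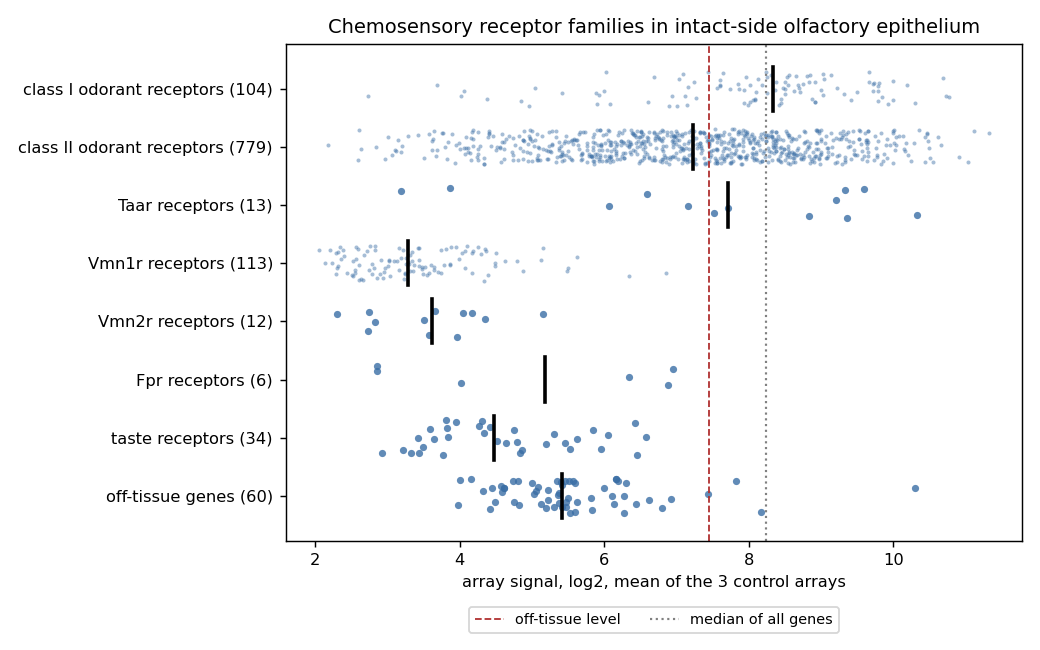
Array signal (log2, mean of the 3 control arrays) of each gene in families of chemosensory receptors and in the off-tissue list, with the number of genes in parentheses. Each point is a gene, black bars are medians, the dashed line is the off-tissue level and the dotted line the median of all genes. Class I and class II receptors centre on 8.33 and 7.23 and trace amine-associated receptors on 7.71, while vomeronasal receptors centre on 3.29 and 3.61, below the off-tissue median of 5.41.

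Other chemosensory families differed in signal. Of 13 trace amine-associated receptors, which detect volatile amines in a small set of OSNs, 8 lay above the off-tissue level, a share near the 62.5% of all genes, led by Taar7d at 10.33 ± 0.26 on a single probe set and Taar4 at 9.59 ± 0.33. Taar1, the member that is not an olfactory receptor, was second to lowest at 3.86 ± 0.11, and Taar7a was lowest at 3.18 ± 0.54. None of 113 vomeronasal type 1 receptors, 12 vomeronasal type 2 receptors, 6 formyl peptide receptors and 34 taste receptors lay above the off-tissue level. Their medians were 3.29, 3.61, 5.18 and 4.47. The vomeronasal channel gene Trpc2, which is also known from some cells of the main olfactory epithelium, had 8.04 ± 0.10.

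Odorant receptors differed between mice more than other genes did. In the lowest quartile of signal, the median SD over mice was 0.34 for receptors and 0.15 for other genes. In the highest quartile it was 0.22 for receptors and 0.10 for other genes. Many receptors have few probe sets, and spreads were wider where probe sets were few, but receptors also had the wider spread among genes with at least 4 of them. There the median SD was 0.27 for 157 receptors and 0.12 for 14374 other genes, and a range over 1 was found for 10.8% of those receptors and 0.93% of those other genes. At signals above the median of all genes it was 0.25 for 34 receptors and 0.11 for 7600 other genes. Over all receptors, 151 of 888 had a range over 1, 17.0%, against 2.33% of all genes. The order of the receptors was nevertheless shared, with a Pearson correlation of 0.959 to 0.961 between mice over the 888 genes, given as a description.

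**Figure D4:**
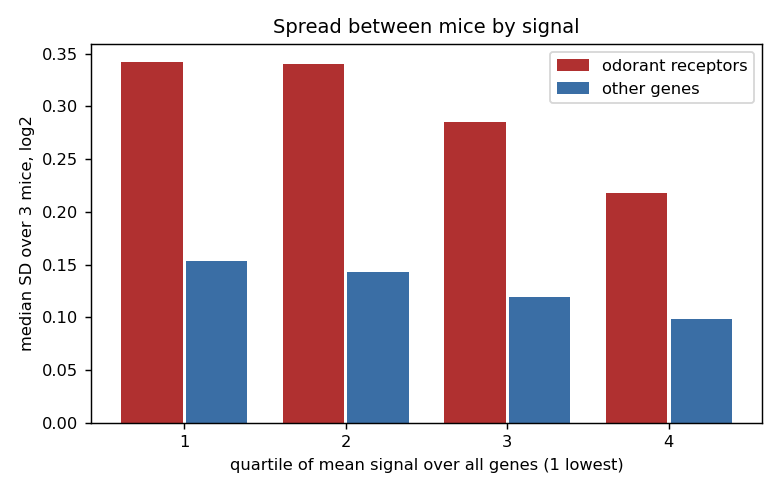
Median SD over the 3 mice (log2) for odorant receptors, red, and all other genes, blue, in each quartile of mean signal. Receptors have the larger spread in each quartile, from 0.34 against 0.15 in the lowest to 0.22 against 0.10 in the highest.

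Receptors of chromosome 14 held the highest share of ranges over 1 among chromosomes with at least 20 measured receptors, 13 of 27, or 48.1%. The share was 17.0% over all receptors and 2.78% on chromosome 17, the lowest of these chromosomes. Olfr1507, known as MOR28, lies in a much studied cluster of chromosome 14 and gave 10.24, 8.81 and 9.89 in mice 1, 2 and 3. Its neighbours Olfr1508 with 10.08, 8.91 and 9.78 and Olfr1509 with 9.48, 8.34 and 9.80 had the same low value in mouse 2. All 5 measured receptors from Olfr1507 to Olfr1512 were lowest in mouse 2, and 4 of them had a range over 1, against 17.0% of all receptors. Elsewhere on chromosome 14, Olfr726 had 10.93, 9.61 and 10.88 and Olfr727, given above, a like pattern. Over all receptors, 574 of 888, 64.6%, were lowest in mouse 2, against 49.8% of all genes. These loci were singled out after their values were seen, and near-identical receptors may share signal.

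Sustentacular cells showed their detoxifying enzymes. Behind Cyp2g1 and Cbr2 stood the sulfotransferase Sult1c1 at 12.70 ± 0.05, the glucuronosyltransferase Ugt2a1 at 11.83 ± 0.11 and the P450 gene Cyp1a2 at 11.71 ± 0.24. Transport and signalling genes of these cells were also high, with the glucose transporter gene Slc2a1 at 11.62 ± 0.12, the receptor kinase gene Tyro3 at 11.27 ± 0.03 and the hypoxia factor gene Epas1 at 11.08 ± 0.04. The lowest was Cyp2a4 at 7.64 on a single probe set. The median SD of the 14 genes over mice was 0.06, the smallest of the cell type lists of the epithelium proper.

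Families of xenobiotic enzymes differed in how many members were high. Of 73 cytochrome P450 genes, 22, or 30.1%, lay above the off-tissue level, against 62.5% of all genes, and the family median was 5.75. Cyp2g1 and Cyp2f2 were in the top 1% of all genes, with Cyp4v3 at 11.39 ± 0.06 and Cyp2j6 at 11.27 ± 0.09 behind Cyp1a2. Ugt2a1 was the only 1 of 12 glucuronosyltransferases above the off-tissue level. Sult1c1 and Sult1d1 at 12.45 ± 0.01 led 11 sulfotransferases, and Ces3 at 11.62 ± 0.17 led 11 carboxylesterases. Fmo1 at 10.87 ± 0.04, Fmo2 at 10.76 ± 0.04 and Fmo5 at 10.26 ± 0.39 stood above Fmo4 at 5.07. Glutathione S-transferases and aldehyde dehydrogenases were high as families, with medians of 9.94 over 23 genes and 9.59 over 19. They were led by Gsta4 at 12.27 ± 0.05, Gstm1 at 12.25 ± 0.06, Aldh2 at 12.75 ± 0.05 and Aldh1a1 at 12.27 ± 0.07.

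Several minor cell types had lower markers. Tuft cell and ionocyte genes had a median of 7.46 over 10 genes, at the off-tissue level, with Foxi1, the ionocyte factor, at 8.64 ± 0.12, Trpm5, the channel of tuft cells, at 7.47 ± 0.07 and Chat at 5.64 ± 0.04. Among ensheathing glia genes only Erbb3 at 10.30 ± 0.06 lay well above the rest, while S100b had 8.28 ± 0.13 and Sox10 8.20 ± 0.12. Markers of respiratory epithelium ranged widely. They were led by Cyp2f2 at 13.48 ± 0.03, given above among the genes of highest signal. Reg3g, a secreted lectin, had 12.15 ± 0.34 and the ciliogenesis factor Foxj1 10.41 ± 0.12, whereas Scgb1a1, the club cell secretoglobin, had 3.90 ± 0.17.

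Fibroblast genes were high with a median of 10.81, and Dcn, a matrix proteoglycan, reached 12.55 ± 0.08. The bone sialoprotein gene Ibsp had 11.00 ± 0.46. Of the macrophage genes the top was Lyz2 at 10.83 ± 0.36, and C1qa had 9.16 ± 0.23, Cd68 8.93 ± 0.35, Csf1r 8.79 ± 0.28 and Cd163 5.56 ± 0.03. None of 9 lymphocyte and 7 skeletal muscle genes lay above the off-tissue level, against 62.5% of all genes. Of 9 brain genes, Eomes at 7.55 and Aqp4 at 10.75 did. Aqp4 also belongs to epithelia, and its 15 probe sets ran from 4.60 to 13.25, a spread that shows how far a mean over probe sets can hide differences along a gene.

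The widest differences between the 3 mice were shared by sets of genes. Among genes with at least 4 probe sets and a signal above the median of all genes, 42 had a range over 1. Of these, 28, or 66.7%, were highest in mouse 2 and lowest in mouse 1, an order found in 4.6% of the 7634 genes that meet the same limits and in 8.74% of all genes. The widest of the 28 belong to products of nasal glands and to mucosal defence. The signal limit left out the neutrophil gene Ngp, whose range of 4.42 exceeded the 4.28 of Dmbt1, the widest of the 42. Ngp was highest in mouse 1 and lowest in mouse 3. No test was made, since the 3 mice are the replicates of a single group.

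Dmbt1, a secreted scavenger protein of mucosal glands, had 8.80, 13.09 and 12.06 in mice 1, 2 and 3. The highest mouse exceeded the lowest 19.5-fold, and mouse 2 exceeded mouse 1 in all 54 probe sets of the gene. The lipocalin genes Lcn3 with 9.66, 13.43 and 12.64 and Lcn4 with 9.82, 13.18 and 12.40 followed the same order, with 13.6-fold and 10.3-fold between the extreme mice. Both encode small carriers of hydrophobic molecules in nasal mucus.

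Car6, a secreted carbonic anhydrase, had 7.45, 11.20 and 10.14, so it lay at the off-tissue level in mouse 1 and far above it in mice 2 and 3. Bpifb9a had 10.38, 13.29 and 12.50, and Scgb1b27, a secretoglobin, 7.53, 10.54 and 9.54. Mucosal defence genes shared the order. The iron-binding proteins of the mucus Lcn2, with 10.39, 12.81 and 12.02, and Ltf, with 10.22, 12.57 and 11.81, had about 5-fold between the extreme mice. Pigr, which carries antibodies across epithelia, had 8.80, 10.40 and 9.76.

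Other gland and mucus genes did not share this order, or had it with a smaller range. Gpx6 had 13.83, 13.68 and 13.68, and Bpifa1 13.58, 13.73 and 13.62. Aqp5, the water channel of gland cells, had 10.72, 10.68 and 10.77, Muc2 10.75, 10.81 and 10.58 and Sox9, a transcription factor of gland cells, 8.75, 8.73 and 8.64. Bpifb6 ran the other way, with 12.49, 11.94 and 12.32. Obp2a with 12.66, 13.99 and 13.61, Obp1a with 12.31, 13.13 and 12.60 and Muc5b with 11.61, 12.26 and 11.85 had the order with a smaller range than Dmbt1, Lcn3 or Lcn4. Obp2a is itself among the 28 genes described above. In a list of 25 gland and mucus genes drawn up after these values were seen, 21 were highest in mouse 2 and lowest in mouse 1, against 8.74% of all genes, a count that the choice of the list in part fixes, and the median deviation from each gene's mean was -0.56 in mouse 1, 0.51 in mouse 2 and 0.05 in mouse 3. Whether the mice differed in the glands taken with the epithelium or in the RNA per gland cell cannot be told apart.

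Major urinary protein genes, a multigene family of pheromone carriers whose members are alike enough to share probes, were also highest in mouse 2. Mup4 had 11.92, 13.20 and 12.35 and Mup5 8.98, 11.75 and 9.23. Promoters of the group are shown because TATAAA near the usual place of a TATA box was frequent there. A match is a description of letters. Of the 24 promoters that matched among the 28 genes with this order, 5 held TATAAA on the gene's strand with its first base 20 to 40 bases before the start. That is 20.8%, against 2.54% of promoters of all measured genes. The 24 promoters had a median GC content of 50.2%, against 57.2% for all. The 5 were Lcn3, Wfdc18, Plet1, Mup4 and Cd177. The last 100 bases before the start are printed for Lcn3 (chr2:25765433-25765532), Wfdc18 (chr11:83708904-83709003) and Plet1 (chr9:50494425-50494524), all on the plus strand of GRCm38.p6 and from RefSeq, with TATAAA in capitals. In these 3 it begins 29, 31 and 30 bases before the start. In Mup4 it begins 27 bases before the start, and in Cd177 40 bases, at the edge of the range searched.
Lcn3: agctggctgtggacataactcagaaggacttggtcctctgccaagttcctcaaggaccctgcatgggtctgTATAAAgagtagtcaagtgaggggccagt
Wfdc18: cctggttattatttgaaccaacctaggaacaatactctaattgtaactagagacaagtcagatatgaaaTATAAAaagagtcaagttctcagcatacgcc
Plet1: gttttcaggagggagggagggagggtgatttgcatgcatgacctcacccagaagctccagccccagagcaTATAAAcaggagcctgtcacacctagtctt
Wfdc18, an antibacterial-type whey acidic protein, had 10.05, 12.04 and 11.21 in mice 1, 2 and 3, and Plet1, an epithelial surface protein, 8.61, 10.04 and 9.19.

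Bone genes were lowest in mouse 3. In a list of 20 genes of bone matrix and osteoclasts, also drawn up after values were seen, 19 were lowest in mouse 3, against 33.0% of all genes. The median deviation was 0.19 in mouse 1, 0.18 in mouse 2 and -0.44 in mouse 3. Col1a1 had 13.56, 13.46 and 12.71, Ibsp 11.25, 11.29 and 10.47, and the osteoclast protease gene Ctsk 10.28, 10.48 and 9.57. Mmp9, a protease of osteoclasts and neutrophils, had 10.52, 10.60 and 9.45, and Phex, an enzyme of osteocytes, 8.98, 8.71 and 7.88. Only Ocstamp of that list was lowest in another mouse.

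Neutrophil and red cell genes had their lowest values in the same mouse. Ngp, a neutrophil granule protein, had 9.60 and 9.31 in mice 1 and 2 and 5.17 in mouse 3, and Mpo, made in their marrow precursors, 7.94, 7.37 and 5.51. Of the 7 neutrophil genes, 6 were lowest in mouse 3, against 33.0% of all genes. The exception was Ltf, which gland cells also make. Among red cell genes, the membrane exchanger gene Slc4a1 had 9.50, 7.74 and 6.18, Alas2, the first enzyme of heme synthesis in red cell precursors, 8.78, 7.52 and 7.41 and Hbb-b1 14.00, 13.34 and 12.73. All 3 were highest in mouse 1, as were 54.0% of all genes, and lowest in mouse 3, as were 33.0% of all genes. Fibroblast genes moved with them, 8 of 8 being lowest in mouse 3, against 33.0% of all genes. The fibroblast and bone lists are both led by Col1a2 and Col1a1, so they are not separate sets. The part of carried bone, marrow or blood in these differences was not tested.

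Further sets had smaller differences. Of 32 genes of motile cilia, 25 were lowest in mouse 1, against 17.2% of all genes, with a median deviation there of -0.16. The cilium tip gene Sntn had 7.90, 9.15 and 8.61 and the dynein gene Dnah5 8.93, 9.91 and 9.51. That list too was made after values were seen. Of 9 interferon response genes, 6 had a range over 1, against 2.33% of all genes, and 5 were highest in mouse 2, against 19.2% of all genes. Among the 5 were Irf7 with 6.96, 8.13 and 6.98 and Mx1 with 5.87, 7.07 and 6.01, below the off-tissue level in every mouse. Of the rest, 2 were highest in mouse 1 and 2 in mouse 3. These included the widest ranges of the list, Rsad2 with 1.52, highest in mouse 1, and Ifit3 with 1.51, highest in mouse 3 on a single probe set. All 9 endothelial genes were highest in mouse 1, against 54.0% of all genes, with Cdh5 at 7.68, 7.08 and 7.14.

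Mature OSN genes had a median SD of 0.13, as all genes did. Genes of the highest quartile of signal, where these markers lie, had 0.10, odorant receptors left out. Of the 18 markers, 17 were lowest in mouse 2, against 49.8% of all genes. Their median deviation there was -0.14, against -0.05 for all genes, and none had a range over 1. Omp was the exception and was lowest in mouse 3 by less than 0.01. Of single genes outside these sets, Calb1, a calcium-binding protein, had 9.30, 7.01 and 8.56, the monooxygenase-like gene Moxd2 11.41, 10.31 and 9.27, and Chil4, a chitinase-like secreted protein, 9.73, 9.22 and 8.00. In every probe set of these 3 genes, the highest mouse of the gene exceeded its lowest mouse.

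**Figure D5:**
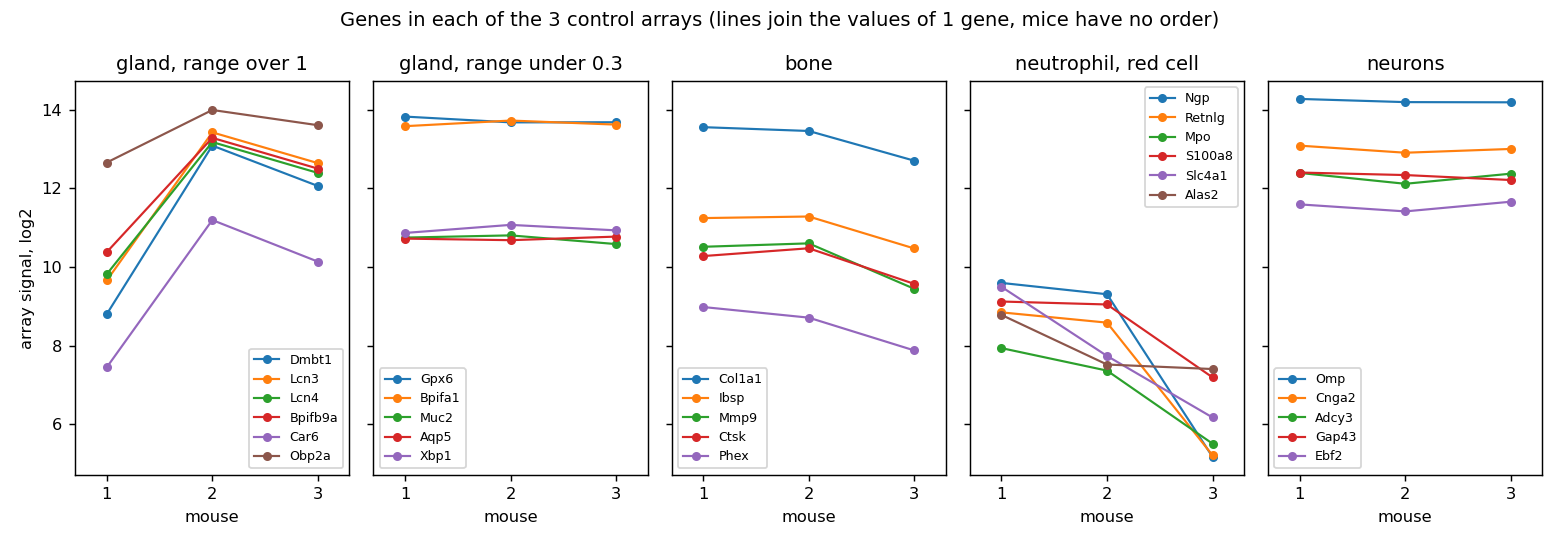
Array signal (log2) of named genes in each of the 3 control arrays. Lines join the values of a single gene and the order of mice has no meaning. Gland genes such as Dmbt1 and Lcn3 are lowest in mouse 1, other gland genes such as Gpx6 and Bpifa1 stay within 0.3, bone, neutrophil and red cell genes are lowest in mouse 3, and neuronal genes are nearly level.

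Genes known to respond to time of day, to stress hormones or to activity differed in spread. Circadian clock genes had a median SD over mice of 0.09, with Dbp at 9.11, 9.12 and 9.24 and Per2 at 8.32, 8.20 and 8.08. Glucocorticoid-responsive genes had a median SD of 0.08, with Fkbp5 at 8.89, 8.77 and 8.74. The 20 immediate early genes had a median SD of 0.195, above the 0.128 of all genes, and 12 of them were lowest in mouse 3, against 33.0% of all genes. Among them only Nr4a1 had a range over 1, with 10.10, 9.50 and 8.78, while Fos had 7.55, 7.23 and 7.06 and Egr1 7.60, 7.29 and 7.24, around the off-tissue level. Cytosolic ribosomal protein genes, 68 of them, had a median of 10.01 and a median SD of 0.09.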

How the data were processed

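The authors used RMA (robust multichip analysis: background correction, normalization and summary of probes) in Affymetrix Expression Console, with no version named in the sources used here. Per the methods these were gene-level values for transcript clusters, but the deposited table holds log2 signals of 229581 single probe sets, and the setting that made these is not given in the sources used here. Normalization across arrays may have included the OBX arrays. The 3 columns of OBX values were not used. Of the probe sets, 209279 carry exactly 1 gene symbol in the platform annotation, 4446 several and 15856 none. Symbols were updated with a RefSeq table (GRCm38.p6), and 45 were not in it. Probe sets were averaged per gene and mouse, and 541 genes have a single probe set. Computation used Python 3.11.15, numpy 2.4.6 and pandas 2.3.3, figures matplotlib 3.10.9. Averaging, ranking and counting were checked on simulated data with known answers.

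There is 1 group, so no p-value was computed. The 3 arrays, from 3 mice, limit the precision. Members, gene lists and the rule for names were chosen with earlier results of these data known. Names came from the 4 given markers, the 25 highest genes with at least 4 probe sets and the 5 highest and lowest odorant receptors. Others were up to 6 highest and the lowest member of each list, and the 20 widest ranges over mice with members of their lists. Not every gene of these sets was named. Genes named outside this rule were chosen after their values were seen, as were the lists of bone, motile cilia and gland genes. Receptor class came from MOR family numbers among RefSeq synonyms, class I up to 42, and 5 receptors had none. A percentile is the share of genes at or below a signal. Listed genes without a probe set of a single symbol were not analysed here.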

Additional observations from a re-analysis of the deposited data

How the results depend on the processing

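No paired analysis was possible because only 1 group was described and no result comes from a test. Alternatives changed 1 choice at a time, and values are given here that moved by more than their SD over mice, or for the count of receptors by more than 1.5 times. The median gene signal of 8.23 was 8.37 with Tukey's median polish or the median of probe sets, 8.67 with the mean of linear signals, 8.43 without the lowest 10% of probe sets, 8.50 without the lowest 10% of genes and 8.36 with only genes of at least 4 probe sets. It was 8.19 to 8.26 without each replicate in turn.

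The median SD of 0.128 was 0.0808 with median polish, 0.161 with the median of probe sets, 0.115 with linear means and 0.114 after quantile normalization of the 3 arrays, and 0.0987 to 0.119 without each replicate. The percentile of Gap43, 99.3, was 98.8 with median polish, the median of probe sets or linear means. That of Krt5, 89.5, was 92.5 with median polish, 92.3 with the median of probe sets, 91.0 with linear means, 92.6 without the lowest probe sets, 88.3 without the lowest genes and 88.8 with at least 4 probe sets. That of Cyp2g1, 99.98, was 99.96 with median polish or the median of probe sets, 99.98 with linear means or without the lowest probe sets and 100 with at least 4 probe sets. That of Omp stayed within its SD over mice wherever it was measured, and with at least 4 probe sets Omp is not among the genes.

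Of the 888 odorant receptors, 157 have at least 4 probe sets. For these the median percentile was 27.7 instead of 37.1, and 59 of them, instead of 437 of the 888, lay above an off-tissue level reset to 7.55. With linear means 327 of the 888 lay above a level of 8.26, and without the lowest 10% of genes 363 lay above a level of 7.82. Without each replicate, the count was 416 to 446 and the median percentile 36.2 to 38.3.

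The order of mice in the gland, bone, motile cilia and mature OSN lists was recomputed under alternatives chosen after seeing the data. The deviation of gland genes in mouse 1 was -0.36 with the median of probe sets and -0.64 after quantile normalization, that of bone genes in mouse 3 -0.37 and -0.44, that of motile cilia genes in mouse 1 -0.11 and -0.22, and that of mature OSN genes in mouse 2 -0.15 and -0.11. After quantile normalization of the 3 arrays 37.5% of all genes were lowest in mouse 2.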
